A study of Mus musculus with 2 samples.

Results

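The genes examined here are 9 genes that mark Sertoli cells or encode the signals by which Sertoli cells support germ cells, namely *Sox9*, *Wt1*, *Gata4*, *Amh*, *Fshr*, *Dhh*, *Kitl*, *Gdnf* and *Clu*. They were chosen by gene symbol, and all 9 were found among the 39695 gene entries of the RNA-seq tables. RPKM, the deposited measure, is a read count scaled to gene length and library size, and the 9 genes were also among the 14831 whose RPKM averaged at least 1 across the libraries. Whole testes of 9-day-old (P9) mice were sequenced, with 1 library from control and 1 library from *Bcas2F/-;Vasa-Cre* mice. *Vasa-Cre* is a Cre transgene active in germ cells, so *Bcas2*, which encodes a component of the spliceosome, was targeted in germ cells and not in Sertoli cells. Control mice had 1 floxed and 1 deleted copy of *Bcas2* (*Bcas2F/-*) and no transgene, so both genotypes shared the deleted allele. The strain is labelled C57BL/6, whereas the methods of the study describe a mixed background. The number of mice behind each library is not given in the sources used here.

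Sertoli cells are the somatic cells of the seminiferous tubule, and they surround and nourish the germ cells throughout spermatogenesis. SOX9, WT1 and GATA4 are transcription factors that establish and keep the Sertoli cell fate, and the FSH receptor receives the pituitary signal that drives Sertoli cell proliferation and function. Immature Sertoli cells secrete AMH, and they also make ligands whose receptors lie on other cells, with GDNF acting on undifferentiated spermatogonia, KITL on differentiating spermatogonia and DHH on Leydig and peritubular cells.

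Upstream sequences are shown for 3 members that differ in level and in the size of the difference between the libraries, *Fshr*, *Dhh* and *Gdnf*. They are RefSeq promoter windows on GRCm38.p6, each of 250 bases before an annotated start, written 5′ to 3′ on the strand of the gene. Capitals mark matches to 5 motifs searched on both strands, which did not overlap one another in the windows shown. The motif of SOX factors was searched as AACAAT and the half-site of the nuclear receptor SF-1 as AGGTCA. The motif of GATA factors was searched in 4 forms, namely AGATAA, followed by its close variant AGATAG, and likewise TGATAA, followed by its close variant TGATAG. The promoter element TATA was searched as TATAAA, and the E-box, a motif of helix-loop-helix factors, as CANNTG. The *Fshr* window is chr17:89200676-89200925 on the minus strand, the *Dhh* window chr15:98898541-98898790 on the minus strand, and the window of the first *Gdnf* start chr15:7809798-7810047 on the plus strand.
Fshr: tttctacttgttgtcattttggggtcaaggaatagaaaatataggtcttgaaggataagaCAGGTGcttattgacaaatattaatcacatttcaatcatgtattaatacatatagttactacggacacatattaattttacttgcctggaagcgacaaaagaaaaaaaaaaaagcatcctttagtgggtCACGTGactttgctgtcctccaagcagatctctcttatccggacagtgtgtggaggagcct
Dhh: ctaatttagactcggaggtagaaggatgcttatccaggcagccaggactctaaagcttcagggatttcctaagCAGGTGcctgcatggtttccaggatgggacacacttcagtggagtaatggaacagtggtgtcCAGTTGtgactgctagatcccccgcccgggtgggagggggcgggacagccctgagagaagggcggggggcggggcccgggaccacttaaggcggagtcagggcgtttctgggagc
Gdnf: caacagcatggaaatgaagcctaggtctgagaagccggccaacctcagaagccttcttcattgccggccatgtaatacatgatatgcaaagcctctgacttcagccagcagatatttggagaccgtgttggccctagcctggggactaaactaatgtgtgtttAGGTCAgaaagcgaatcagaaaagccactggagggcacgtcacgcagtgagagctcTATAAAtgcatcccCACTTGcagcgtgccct
The *Fshr* window held 2 E-box matches, CAGGTG and CACGTG, of which the second lay 61 to 56 bases before the start. The *Dhh* window also held 2 E-box matches, CAGGTG and CAGTTG. In the *Gdnf* window an SF-1 half-site lay 87 to 82 bases and a TATA match 31 to 26 bases before the start, followed by an E-box match, CACTTG. A second annotated *Gdnf* start had 2 overlapping GATA matches and 1 E-box match, and the *Kitl* window had 1 TATA match 25 to 20 bases before its RefSeq start. The GENCODE M21 annotation starts *Kitl* upstream of this match, with only 59 bases of the window before any annotated exon. It starts *Gdnf* at chr15:7810846, downstream of the first RefSeq start. Of 32851 windows of this length from 27025 genes, 66.2% held an E-box match, 26.5% a GATA match, 14.0% an SF-1 half-site, 12.4% a TATA match and 9.42% a SOX match. The E-box matches of *Fshr* and *Dhh* were thus of a kind found in most windows. GC content was 36.8% in the *Fshr*, 50.8% in the *Gdnf*, 59.6% in the *Dhh* and 69.2% in the *Kitl* window. These matches describe letters only. *Sox9*, *Wt1*, *Gata4*, *Amh* and *Clu* have no entry in the promoter table.

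The targeted gene was examined first. *Bcas2* (chr3:103171655-103179166, plus strand) measured 39.5 RPKM in control and 25.7 RPKM in *Bcas2F/-;Vasa-Cre* testes, from 1410 and 888 reads. Its log2 ratio was -0.60, and its counting interval (-0.75 to -0.50) lay below 0. The libraries held 19918750 counted reads (control) and 19331687 (*Bcas2F/-;Vasa-Cre*), recovered from the RPKM values. Ratios are log2 of RPKM + 1 in *Bcas2F/-;Vasa-Cre* over RPKM + 1 in control testes, and the added 1 makes the difference of weakly expressed genes look smaller. With 1 library per genotype, differences could not be checked against replicates and are given without p-values. Intervals are 95% intervals that cover counting error only, exact Poisson for an RPKM and Clopper-Pearson for a ratio, the latter without the added 1. Across the 14831 genes the median log2 ratio was 0.015 with an SD of 0.259.

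With the deposited scaling, RPKM was higher in *Bcas2F/-;Vasa-Cre* than in control testes for all 9 Sertoli cell genes, whereas *Gata4* and *Fshr* turned to a log2 ratio below 0 once the median of all genes or of other Sertoli cell genes was set to 0. Of all tested genes, 53.7% were higher with the deposited scaling. The median log2 ratio of the members was 0.26, against 0.015 for all genes. The counting interval lay above 0 for 7 of the 9 and held 0 for *Gata4* and *Fshr*, and it lay above 0 for 19.9% and below 0 for 17.9% of the 14443 tested genes with recovered reads. Those shares include genes with fewer reads than any member, whose intervals are wider. No share was computed for genes with as many reads as the members, so the counts are not directly comparable. None of the 9 reached a 1.5-fold difference, the size passed by 3.26% of all tested genes in either direction. Together the members took 0.382% of the counted reads in control (76175 reads) and 0.426% in *Bcas2F/-;Vasa-Cre* testes (82359 reads). In whole testes, fewer cells of a type and less RNA per cell cannot be told apart, and the same holds for more cells and more RNA per cell.

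**Figure D1:**
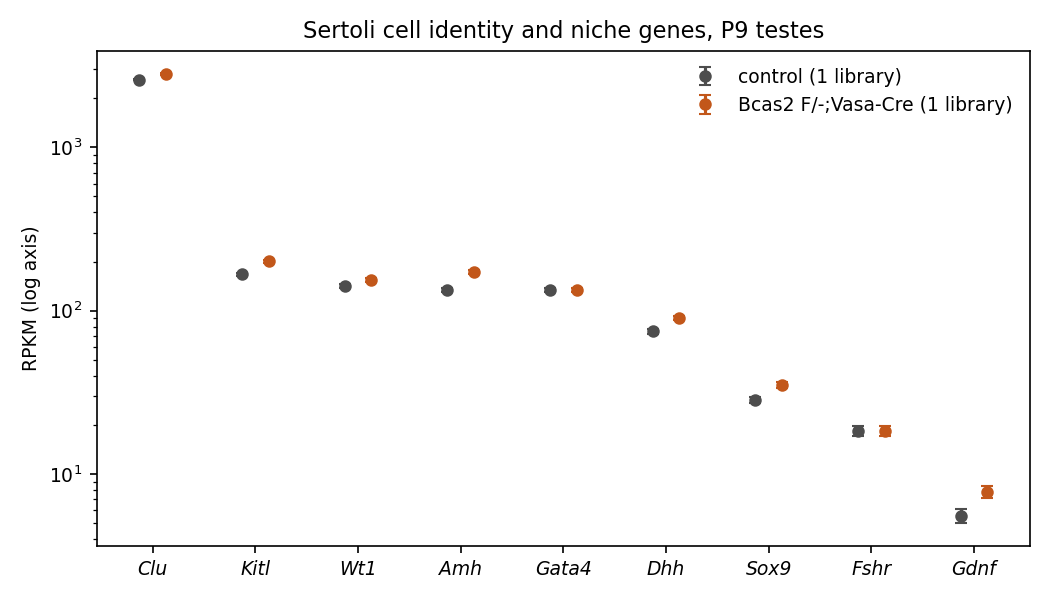
RPKM (log axis) of the 9 Sertoli cell genes in the control and the *Bcas2F/-;Vasa-Cre* library, ordered by control level, with bars for 95% Poisson counting intervals. Levels ran from 5.55 (*Gdnf*) to 2593 RPKM (*Clu*) in control, and the points of *Gata4* and *Fshr* nearly coincide.

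Among the 3 transcription factors, the largest ratio belonged to *Sox9*, which directs supporting cells of the fetal gonad to the Sertoli cell fate. *Sox9* (chr11:112782224-112787760, plus strand) had an RPKM of 28.5 in control (95% interval 27.3 to 29.6) and 35.1 in *Bcas2F/-;Vasa-Cre* testes (33.8 to 36.4), from 2345 and 2805 reads. The intervals of the libraries did not overlap, and the value was 1.23-fold higher in *Bcas2F/-;Vasa-Cre* testes (log2 ratio 0.29, counting interval 0.22 to 0.38). Of the 4950 genes with a mean RPKM within 2-fold of that of *Sox9*, *Sox9* included, 2.3% had a log2 ratio as high or higher.

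*Wt1* (chr2:105126529-105173616, plus strand), a zinc finger factor needed to keep Sertoli cells from losing their identity, had an RPKM of 142 in control (139 to 146) and 153 in *Bcas2F/-;Vasa-Cre* testes (149 to 157). The log2 ratio was 0.11 with a counting interval of 0.06 to 0.16, so that the libraries were apart by more than counting error, and 18.4% of 1426 genes of like level had a ratio as high. *Gata4* (chr14:63198922-63271692, minus strand), which acts upstream of *Sox9* in the gonad and binds the *Amh* promoter, had an RPKM of 133 in control (130 to 137) and 134 in *Bcas2F/-;Vasa-Cre* testes (130 to 138). These values overlapped almost completely, the log2 ratio of 0.01 had a counting interval of -0.05 to 0.07, and 45.0% of 1618 genes of like level had a ratio as high. The 3 factors thus did not share one ratio within counting error, since the interval of *Sox9* lay above those of *Wt1* and *Gata4*.

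*Amh* and *Fshr*, a hormone of immature Sertoli cells and the receptor that marks them as the targets of FSH, had log2 ratios further apart than the transcription factors. This ranking was not checked against counting error. *Amh* (chr10:80805243-80807648, plus strand) encodes the hormone that makes the Müllerian ducts regress. It had an RPKM of 134 in control (130 to 138) and 172 in *Bcas2F/-;Vasa-Cre* testes (168 to 177), from 4454 and 5544 reads. The intervals did not overlap, and *Amh* was 1.28-fold higher (log2 ratio 0.36, counting interval 0.30 to 0.42). Only 0.6% of the 1358 genes of like level had a log2 ratio as high, the lowest such share among the members.

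*Fshr* (chr17:88984952-89200675, minus strand) had an RPKM of 18.4 in both libraries (17.1 to 19.7 in control and 17.1 to 19.8 in *Bcas2F/-;Vasa-Cre* testes), from 760 and 740 reads. Its log2 ratio was 0.00 with a counting interval of -0.14 to 0.15, which leaves room for a difference of that size at this depth. A ratio as high was found in 54.0% of 5229 genes of like level. Downstream of the receptor, 8 of 9 genes of FSH and cyclic AMP signalling had a mean RPKM of at least 1, with a median log2 ratio of 0.01 and none past 1.5-fold. Of the 8, 5 were higher and 3 lower with the deposited scaling. The counts were 7 and 1 with RPKM rescaled to the same sum, and 4 and 4 with the median of all genes at 0. They were 1 and 7 once the other Sertoli cell genes were centred on 0. The genes with the highest RPKM, *Prkar1a* and *Prkaca*, which encode a regulatory and a catalytic subunit of protein kinase A, had RPKM values of 251 and 48.5 in control and 262 and 48.2 in *Bcas2F/-;Vasa-Cre* testes.

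**Figure D2:**
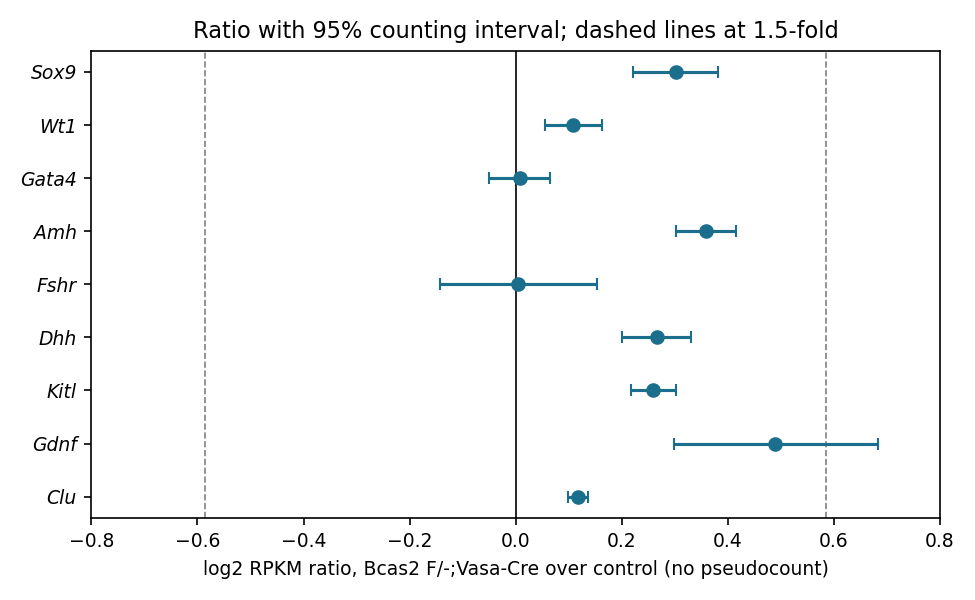
Log2 ratio of RPKM, *Bcas2F/-;Vasa-Cre* over control, without an added pseudocount, for each of the 9 Sertoli cell genes, with 95% counting intervals, a line at 0 and dashed lines at 1.5-fold. The interval of *Gdnf* reaches past the upper dashed line, those of *Gata4* and *Fshr* hold 0 (both genes are below 0 when the median of all genes or of other Sertoli cell genes is set to 0), and those of 7 genes lie above it.

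The 3 niche ligands, *Gdnf*, *Kitl* and *Dhh*, were all higher in *Bcas2F/-;Vasa-Cre* testes under every scaling tried. *Gdnf* (chr15:7810846-7837575, plus strand), the ligand that sustains self-renewal of spermatogonial stem cells, had an RPKM of 5.55 in control (5.01 to 6.13) and 7.80 in *Bcas2F/-;Vasa-Cre* testes (7.15 to 8.49). It had the lowest level of the 9 members and rested on 388 and 529 reads, and its intervals nevertheless did not overlap. The log2 ratio was 0.42, the highest among the members, or 0.49 without the added 1, with a counting interval of 0.30 to 0.68. In 4053 genes of like level, 3.0% had a ratio as high.

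*Kitl* (chr10:100015630-100100416, plus strand) encodes the ligand of the receptor tyrosine kinase KIT. It had an RPKM of 167 in control (164 to 171) and 200.1 in *Bcas2F/-;Vasa-Cre* testes (196 to 204), from 8413 and 9777 reads, a log2 ratio of 0.26 (counting interval 0.22 to 0.30). *Dhh* (chr15:98891152-98898540, minus strand), the hedgehog ligand of the testis, had an RPKM of 74.9 in control (72.5 to 77.4) and 90.1 in *Bcas2F/-;Vasa-Cre* testes (87.4 to 92.9), a log2 ratio of 0.26 (0.20 to 0.33). Both ligands were 1.20-fold higher with intervals that did not overlap, and the share of genes of like level with a ratio as high was 2.1% of 1085 for *Kitl* and 2.4% of 2717 for *Dhh*. *Dhh* shares 546 exonic bases with *Rhebl1* on the same strand, which measured 13.1 RPKM in control and 12.1 RPKM in *Bcas2F/-;Vasa-Cre* testes, and 1107 bases with the antisense gene *Gm49442*, and whether the counting used strand is not given in the sources used here. No other member shares exonic bases with another gene of GENCODE M21.

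*Clu* (chr14:65968483-65981547, plus strand), which encodes the secreted chaperone clusterin, a main secretory product of Sertoli cells, was by far the most abundant member. It had an RPKM of 2593 in control (2569 to 2617) and 2813 in *Bcas2F/-;Vasa-Cre* testes (2788 to 2838), from 45862 and 48285 reads. The log2 ratio was 0.12 (0.10 to 0.14), and of only 16 genes of like level 6.2%, *Clu* itself, had a ratio as high. *Clu* accounted for 60.2% of the members' reads in control and 58.6% in *Bcas2F/-;Vasa-Cre* testes, so that the summed level of the members (3297 and 3624 RPKM) mostly follows this gene.

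**Figure D3:**
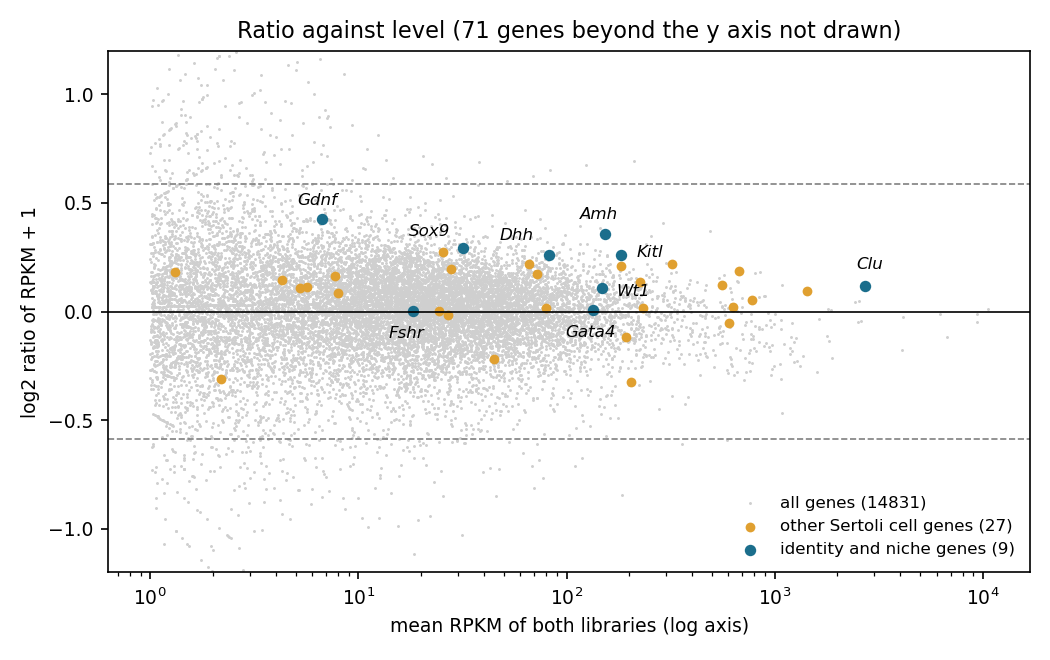
Log2 ratio of RPKM + 1, *Bcas2F/-;Vasa-Cre* over control, against mean RPKM (log axis) for the 14831 tested genes, with the 9 Sertoli cell genes labelled, 27 other Sertoli cell genes in orange, dashed lines at 1.5-fold and 71 genes beyond the vertical range left out. The members lie between 0.00 (*Fshr*; below 0 together with *Gata4* when the median of all genes or of other Sertoli cell genes is set to 0) and 0.42 (*Gdnf*), inside the spread of the other genes.

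In control testes the order of RPKM was *Clu*, *Kitl*, *Wt1*, *Amh*, *Gata4*, *Dhh*, *Sox9*, *Fshr* and *Gdnf*. Only the neighbours *Amh* and *Gata4*, at 134 and 133 RPKM, had overlapping intervals. In *Bcas2F/-;Vasa-Cre* testes *Amh* stood above *Wt1*, at 172 against 153 RPKM, the rest of the order was the same, and no neighbours overlapped. The ratio of *Amh* to *Wt1* was 0.944 in control and 1.12 in *Bcas2F/-;Vasa-Cre* testes, a log2 difference of 0.25 with a counting interval of 0.17 to 0.33. Such a ratio of 2 genes of the same library is independent of how the libraries are scaled.

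The same measure was used for some further pairs of members, none of them with *Dhh* or *Clu*. *Amh* to *Gata4* went from 1.01 to 1.28 (log2 difference 0.35, counting interval 0.27 to 0.43), whereas *Amh* to *Sox9* differed by 0.06 (-0.04 to 0.16), so that *Amh* and *Sox9* were not apart beyond counting error. *Gdnf* to *Fshr* was 0.303 in control and 0.424 in *Bcas2F/-;Vasa-Cre* testes (0.49, 0.25 to 0.73), and *Kitl* to *Fshr* was 9.11 and 10.9 (0.26, 0.10 to 0.41). *Gdnf* was also higher relative to *Kitl*, at 0.0332 and 0.0390 (0.23, 0.04 to 0.42). By log2 ratio, *Gdnf*, *Amh* and *Sox9* were at the upper end of the members and *Gata4* and *Fshr* at the lower end. Most of the pairs set a member with a higher ratio against one with a lower ratio. They are therefore no separate support for this order, and the remaining pairs of members were not computed.

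Each ligand was next set against its receptors. *Kit*, the receptor of KITL on differentiating spermatogonia, measured 39.2 RPKM in control and 30.1 RPKM in *Bcas2F/-;Vasa-Cre* testes, from 1653 and 1231 reads (log2 ratio -0.37, counting interval -0.49 to -0.28). *Kitl* stood 4.26-fold above *Kit* in control and 6.65-fold above it in *Bcas2F/-;Vasa-Cre* testes, a log2 difference of 0.64 (0.53 to 0.76). For GDNF, the co-receptor gene *Gfra1* had RPKM values of 11.2 and 9.74 and the kinase gene *Ret* 6.82 and 5.90. *Gdnf* to *Gfra1* went from 0.495 to 0.801 (log2 difference 0.69, 0.42 to 0.97) and *Gdnf* to *Ret* from 0.814 to 1.32 (0.70, 0.47 to 0.93). In the control library the ligand was thus below both receptor genes per length, and in the *Bcas2F/-;Vasa-Cre* library it was above *Ret* and below *Gfra1*. The order of *Gdnf* and *Ret* in the *Bcas2F/-;Vasa-Cre* library depends on the gene lengths behind RPKM. For *Ret* the length came to 6703 bases, against a mean GENCODE M21 transcript length of 4976.5 bases.

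The receptors of DHH and AMH lie on somatic cells. *Ptch1*, the hedgehog receptor and itself a target of the pathway, measured 18.0 RPKM in control and 20.4 RPKM in *Bcas2F/-;Vasa-Cre* testes, and *Dhh* to *Ptch1* differed by 0.09 (-0.03 to 0.21). The transducer *Smo* measured 42.2 and 41.6 RPKM, and *Dhh* to *Smo* differed by 0.29 (0.19 to 0.38). For *Dhh* to *Gli1*, a transcriptional target of the pathway, the difference was 0.14 (just below 0 to 0.28). *Dhh* to the effector *Gli2* differed by 0.243 (-0.005 to 0.491), and *Dhh* to the antagonist *Hhip* by 0.147 (-0.005 to 0.299). The intervals for *Gli1*, *Gli2* and *Hhip* all held 0, but only narrowly. *Amhr2*, the type II receptor of AMH, measured 306 RPKM in control and 302 RPKM in *Bcas2F/-;Vasa-Cre* testes, and *Amh* to *Amhr2* went from 0.440 to 0.571 (0.38, 0.30 to 0.46). For the type I receptor *Bmpr1a* (97.9 and 106 RPKM) the log2 difference was 0.25 (0.17 to 0.33), and for *Acvr1* (8.57 and 10.6 RPKM) it was 0.05 (-0.15 to 0.24). *Clu* differed from neither of its receptor genes *Lrp2* and *Lrp8* beyond counting error (0.52, -0.08 to 1.11, and -0.12, -0.24 to 0.00). Of the 13 pairs of a member and its receptor or pathway gene, 6 had an interval above 0, 0 below 0 and 7 held 0. For single genes with recovered reads, the interval lay above 0 for 19.9% and below 0 for 17.9%. No such share was computed for pairs of other genes. All 9 members were higher with the deposited scaling, which favours pair intervals above 0. Pairs of the same member share its value.

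**Figure D4:**
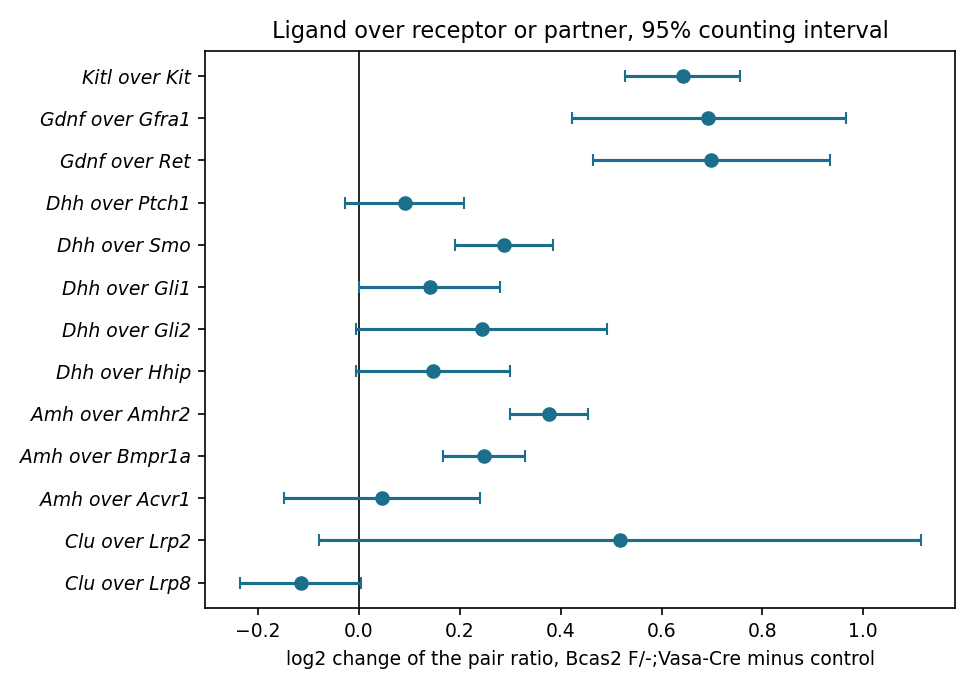
Log2 difference between the libraries (*Bcas2F/-;Vasa-Cre* minus control) in the ratio of each member to a receptor or pathway gene, with 95% counting intervals and a line at 0. The values are highest for *Gdnf* to *Ret* (0.70), *Gdnf* to *Gfra1* (0.69) and *Kitl* to *Kit* (0.64).

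Members were then compared with 30 other genes of Sertoli cells. Of these, 27 had a mean RPKM of at least 1, with a median log2 ratio of 0.11 against 0.26 for the members, 21 higher and 6 lower, and 0 past 1.5-fold. The counting interval lay above 0 for 12, below 0 for 4 and held 0 for 11. *Aard* and *Cst12*, those with the highest RPKM, had 1379 and 764 RPKM in control and 1475 and 794 RPKM in *Bcas2F/-;Vasa-Cre* testes (log2 ratios 0.10 and 0.06). Chosen after their values were seen, *Inha* and *Inhbb*, which encode inhibin subunits, had log2 ratios of 0.22 each, and *Dmrt1*, a gene of Sertoli cells and also of spermatogonia, had RPKM values of 226 and 180 (-0.32). Besides *Dmrt1*, the genes with an interval below 0 were *Mfge8* (48.2 and 41.3 RPKM), *Cited1* (200.5 and 185) and *Gatm* (615 and 592). *Rhox5* and *Rhox8* were listed at 0 in both libraries. Of 13 further niche ligands, 10 had a mean RPKM of at least 1, with a median log2 ratio of 0.15, 8 higher, 2 lower (5 and 5 once the other Sertoli cell genes were centred on 0) and 0 past 1.5-fold. The highest in RPKM were *Igf1* (91.0 and 106) and *Cxcl12* (37.3 and 43.8).

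The label of Sertoli cell genes was examined against the female counterpart. *Foxl2*, which defines granulosa cells, had 5 reads in control and 1 in *Bcas2F/-;Vasa-Cre* testes. Of 5 granulosa cell genes, 4 had a mean RPKM of at least 1, with a median log2 ratio of 0.01, 2 higher and 2 lower, and a summed level of 14.9 and 14.7 RPKM. The counting interval lay above 0 for 1 of the 4, below 0 for 1 and held 0 for 2. The highest in RPKM were *Rspo1* (8.02 and 7.31) and *Fst* (4.04 and 4.54).

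Markers of other cell types also differed between the libraries. Germ cell markers had a median log2 ratio of -0.38, 15 of 19 were lower, and their summed level was 914 RPKM in control and 675 RPKM in *Bcas2F/-;Vasa-Cre* testes. Those more than 1.5-fold lower, a size passed by 1.69% of all tested genes, were *Nanos3* (15.2 and 7.16 RPKM), *Rhox13* (16.8 and 8.22), *Dmrtb1* (29.6 and 16.8), *Sall4* (26.6 and 15.9), *Stra8* (87.2 and 56.8) and *Mov10l1* (64.0 and 41.9). Their number was 5 with RPKM rescaled to the same sum and 7 once the other Sertoli cell genes were centred on 0. With RPKM rescaled, 1 marker was more than 1.5-fold higher. The counting interval lay below 0 for 14 of the 19, above 0 for 3 and held 0 for 2. Those with an interval above 0 were *Nanos2* (1.01 and 1.83 RPKM), *Neurog3* (2.41 and 3.73) and *Sohlh2* (17.7 and 20.5). The part of the germ cell markers in the values of the 9 Sertoli cell genes was not tested, and both groups of genes were measured in the same 2 libraries.

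Among somatic cell types, 4 of 6 Leydig cell genes past the minimum of 1 RPKM were higher, or 3 of 6 once the other Sertoli cell genes were centred on 0 (median log2 ratio 0.20, summed level 387 and 431 RPKM). Their counting interval lay above 0 for 2, below 0 for 1 and held 0 for 3. The gene with the interval below 0 (-0.23 to -0.12) was *Hsd3b1*, the highest in RPKM, at 189 and 168. *Cyp17a1*, an enzyme of androgen synthesis, was past 1.5-fold at 94.8 and 152 RPKM (log2 ratio 0.68), a size passed upwards by 1.57% of all tested genes, but no longer so once the other Sertoli cell genes were centred on 0. Peritubular markers were lower for 4 of 6 (summed level 539 and 504 RPKM, with *Acta2* at 344 and 314 and *Tagln* at 110 and 106), and endothelial markers for 3 of 5 (38.9 and 37.1 RPKM, with the highest levels in *Cdh5* and *Pecam1*). Macrophage markers were lower for 4 of 5 (88.8 and 71.8 RPKM, with *Lyz2* at 59.1 and 43.6 and *Mrc1* at 12.3 and 13.2). With the other Sertoli cell genes centred on 0, all 6 peritubular, all 5 endothelial and all 5 macrophage markers were lower. The members' median of 0.26 was above the medians of these lists, which were -0.06 for peritubular, -0.06 for endothelial and -0.19 for macrophage markers. These lists' part in the members' values was not tested.

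Red blood cell and immediate early genes can mark blood content and handling of the tissue. Red blood cell genes were lower for 5 of 6 (summed level 980 and 944 RPKM), with *Slc4a1* at 15.7 and 0.607 and *Hbb-bt* at 42.4 and 20.3 RPKM past 1.5-fold. The counting interval lay below 0 for 4 of the 6 and held 0 for *Hba-a2*. *Hbb-bs*, the most abundant of them, was higher at 551 and 596 RPKM (log2 ratio 0.11, counting interval 0.06 to 0.16). How reads that match more than 1 globin gene were counted is not given in the sources used here and was not tested. Immediate early genes were lower for 7 of 9 (153 and 121 RPKM; 8 of 9 once the other Sertoli cell genes were centred on 0), with the counting interval below 0 for 6 and holding 0 for *Jun* and for the higher *Junb* and *Nr4a1*. *Fos* (11.8 and 7.34), *Fosb* (10.9 and 0.276), *Atf3* (15.7 and 8.48) and *Dusp1* (11.3 and 6.97) were past 1.5-fold. Their part in the members' values was not tested.

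**Figure D5:**
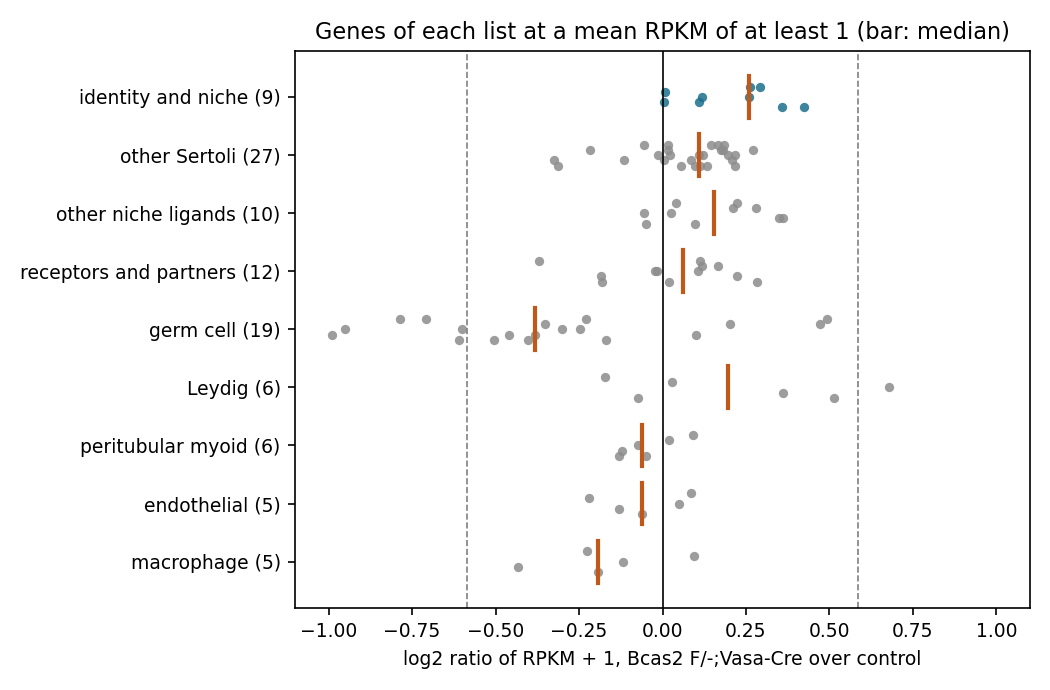
Log2 ratios of RPKM + 1, *Bcas2F/-;Vasa-Cre* over control, for each gene of the 9 Sertoli cell genes and of 8 comparison lists (points; mean RPKM of at least 1), with the median of each list as a bar and dashed lines at 1.5-fold. The members' median is 0.26 (0.15 with the median of other Sertoli cell genes set to 0, where *Gata4* and *Fshr* are below 0, as they are when all genes are centred on 0) and that of germ cell markers -0.38.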

How the data were processed

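RNA-seq of P9 testes was examined in 1 control and 1 *Bcas2F/-;Vasa-Cre* library. The authors deposited RPKM values, made from NEBNext Ultra libraries (total RNA per the labels, mRNA in the study's text) with TopHat2 alignment (version 2.0.9 and build mm10 per the submitters' processing notes) and HTSeq counts. The annotation release and the gene lengths behind RPKM are not given in the sources used here. RPKM corrects for length and library size, not for RNA composition. The members and all gene lists were chosen with earlier results of these data known, the lists from common knowledge of cell types. Of the 39695 entries, 37692 (95.0%) were matched by Ensembl identifier to GENCODE M21 on GRCm38, and 517 carried no identifier.

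Log2 ratios used a pseudocount of 1 and a minimum mean RPKM of 1. Whole reads were recovered because RPKM is a whole number of reads divided by length and library size. A library size was sought that made single-transcript genes whole (80.9% of 6283 in control and 81.2% of 6338 in *Bcas2F/-;Vasa-Cre* testes, within 0.02 read), and for each gene the whole length nearest its mean M21 transcript length was taken that gave whole reads in both libraries. The recovered reads summed to 100.8% and 100.7% of the library sizes, so for a small share of genes they are too many. Ratios of 2 genes have Wald intervals from 4 read counts. Besides the 9 members and *Bcas2*, genes named from a list were those past 1.5-fold with at least 30 reads or otherwise the 2 with the highest RPKM, receptors and pathway genes were named for their ligand (1 is not reported here), and others are said to be chosen after their values were seen. *Foxl2*, *Rhox5* and *Rhox8* were named as defining markers or because they were at 0. *Hbb-bs*, *Hba-a2*, *Jun*, *Junb*, *Nr4a1*, *Nanos2*, *Neurog3*, *Sohlh2*, *Hsd3b1*, *Mfge8*, *Cited1* and *Gatm* were named after their values were seen.

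On simulated data exact reads were recovered for 99.3% of 23311 genes, and 91.5% of 200 genes changed 2-fold were past 1.5-fold in the right direction. The simulated lengths stayed nearer to the annotation than some recovered here, such as that of *Kitl* at 1.53 times the mean M21 transcript length. The recovery of such lengths was not simulated. No test was run, because each genotype had 1 library. Alternatives were pseudocounts of 0.1 and 0.01, a minimum mean RPKM of 5 or none, RPKM rescaled to a sum of 1000000, and the median log2 ratio of all genes or of the other Sertoli cell genes set to 0. Calculations were done in Python 3.11.15 (numpy version 2.4.6, scipy version 1.17.1, pandas version 2.3.3) and figures drawn with matplotlib 3.10.9.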

Additional observations from a re-analysis of the deposited data

How the results depend on the processing

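The median log2 ratio of the 9 members was 0.26 as reported and lay between 0.243 and 0.287 under both other pseudocounts, a scaling with the median of all genes at 0, another with RPKM summing to 1000000 in each library and a minimum mean RPKM of 5, which kept all 9. With the median of the other Sertoli cell genes set to 0, which moves every log2 ratio by 0.108, it was 0.151. No member passed 1.5-fold in any of these alternatives. *Gata4* and *Fshr* reached -0.10 at the lowest, and *Wt1* and *Clu* came to 0.00 and 0.01 with the other Sertoli cell genes at 0, whereas *Amh* (0.25 to 0.39), *Gdnf* (0.32 to 0.49), *Sox9*, *Dhh* and *Kitl* stayed above 0. The median of the other Sertoli cell genes lay between 0.091 and 0.140, and *Bcas2* between -0.712 and -0.584. The number of members higher was 9 with the deposited scaling and 7 with either median at 0. Of 50 alternative log2 ratios of *Bcas2* and the members, 42 moved by no more than the half-width of the gene's counting interval and 8 by more, 7 of these with the other Sertoli cell genes at 0. No paired analysis was possible because each genotype had 1 library. Depth limits *Fshr* and *Gdnf* most, with 740 and 388 reads in the library where each had fewer. Variation between mice cannot be estimated from these libraries.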

Other observations

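The gene lengths behind the deposited RPKM were recovered along with the reads. For *Sox9*, *Gata4* and *Clu* they came to 4135, 1853 and 888 bases, equal to the mean M21 transcript length after rounding. For *Kitl* the length was 2527 bases, 1.53 times the mean M21 transcript length of 1654 bases, and for *Fshr* it was 2079 bases against 2360. With M21 lengths *Kitl* would have 255 RPKM in control and 306 RPKM in *Bcas2F/-;Vasa-Cre* testes, and *Fshr* 16.2 in each. The order of the 9 members by RPKM was the same with either set of lengths in both libraries, and ratios between the libraries do not depend on the length.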
